A study of Mus musculus with 18 samples.

Results

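The 8 genes described here are Dcx, Sox11, Sox4, Stmn2, Tubb3, Tubb2b, Dpysl3 and Gap43, a list of genes that mark immature neurons, out of 19938 genes measured. Their levels came from the vestibular organ, which senses balance, of mice without insulin-like growth factor 1 (Igf1 -/-, called null below) and of Igf1 +/+ mice (wild type), all on a hybrid background of Mf1 and 129/sv. Each genotype was sampled at the embryonic stage E18.5 and on the postnatal days P15 and P90, with 3 Affymetrix Mouse Gene 1.1 ST arrays in each of the 6 groups. Per the labels, all mice were perfused with paraformaldehyde before the inner ear was taken out. The labels call the arrays biological replicates but do not say whether 1 animal or a pool stands behind each, so a p-value measures the spread between these arrays, which may in part be technical. For the P15 and P90 wild-type arrays, 1 free-text label names the other genotype, whereas the title, the source and the genotype label agree on Igf1 +/+, which was used. Each of the 8 genes is read by 1 probe set, so that the highest mean over the groups, by which a probe set was to be chosen, decided nothing for them. The genes were chosen by name, with their levels by age and genotype on these arrays already known, and so the levels are a description, and the tests below, made over all 19938 genes, are no independent evidence for their pattern.

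A neuron that has just left the cell cycle switches on transcription factors that start the neuronal program, builds a dynamic microtubule skeleton for migration, and extends an axon that ends in a growth cone. The genes follow that order of roles. Sox11 and Sox4 are transcription factors of the SoxC family, Dcx and Stmn2 encode proteins that bind microtubules or free tubulin, Tubb3 and Tubb2b are beta-tubulins, and Dpysl3 and Gap43 act in the growth cone. Expression of Dcx is largely lost once neurons mature, whereas Gap43 and Stmn2 stay on in some adult neurons. Sox4 and Sox11 are also expressed in embryonic mesenchyme, and Sox4 in lymphocyte progenitors, so not every member is restricted to neurons.

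For 4 of the 8 genes the RefSeq promoter table (GRCm38.p6) held a window. The 250 bases before the start are shown for Sox11, Sox4 and Tubb3, whose windows do not overlap the annotated gene. Dcx had 2 windows, of which the first overlaps the annotated gene and the other was not examined, and neither is printed. Stmn2, Tubb2b, Dpysl3 and Gap43 had no entry. The windows are chr12:27342719-27342968 (minus strand) for Sox11, chr13:28953700-28953949 (minus strand) for Sox4 and chr8:123411303-123411552 (plus strand) for Tubb3. Capitals mark matches on either strand to the E-box CAGCTG or to CCAAT, and no match to CAGATG (an E-box) or AACAANG (a Sox site) was found in these windows.
Sox11: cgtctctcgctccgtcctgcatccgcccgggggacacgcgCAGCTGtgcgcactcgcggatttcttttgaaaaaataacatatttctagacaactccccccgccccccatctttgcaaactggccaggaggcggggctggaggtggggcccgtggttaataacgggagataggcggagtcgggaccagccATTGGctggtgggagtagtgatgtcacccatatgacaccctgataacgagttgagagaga
Sox4: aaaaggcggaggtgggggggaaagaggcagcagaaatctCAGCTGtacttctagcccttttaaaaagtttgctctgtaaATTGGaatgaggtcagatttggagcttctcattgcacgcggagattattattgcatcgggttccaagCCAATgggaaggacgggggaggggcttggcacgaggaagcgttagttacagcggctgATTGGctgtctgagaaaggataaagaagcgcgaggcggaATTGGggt
Tubb3: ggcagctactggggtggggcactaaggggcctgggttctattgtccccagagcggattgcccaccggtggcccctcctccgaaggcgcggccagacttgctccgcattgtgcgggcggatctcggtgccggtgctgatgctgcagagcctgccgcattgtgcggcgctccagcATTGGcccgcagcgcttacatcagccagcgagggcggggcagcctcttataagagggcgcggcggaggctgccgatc
CAGCTG stood 210 bases before the start of Sox11 and 211 bases before that of Sox4, and was not in the Tubb3 window. Over 32851 windows of the same length, 13% held CAGCTG, 14.4% CAGATG, 12.1% AACAANG and 33.8% CCAAT. A match to CCAAT was found once in Sox11, 4 times in Sox4 and once in Tubb3. The motifs do not overlap each other here, and a match is a description of the letters only.

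Levels are given in normalized log units of the deposited values after quantile normalization, which gives every array the same distribution. No label states the base of the logarithm. It is most likely e, where 1 unit is 2.72-fold, and with base 2 a unit would be 2-fold, so folds are printed for both. Differences carry the standard error (SE) of the limma fit over all 18 arrays, adjusted p-values are Benjamini-Hochberg values over 19938 genes, and a gene is said to rise or fall only where that value lies below 0.05. The deposited arrays had medians of 3.88 to 4.82, so all changes are relative to the other genes. Igf1 itself was at 6.4 to 6.88 in null and 6.98 to 7.07 in wild-type arrays of E18.5. At P15 it was at 5.42 to 5.69 in null and 5.87 to 6.11 in wild type, and at P90 at 5.31 to 5.51 and 5.39 to 5.63. The genotypes thus overlapped at P90 only. Its genotype difference did not pass at E18.5 (-0.43 ± 0.12, adjusted p = 0.16), P15 (-0.41 ± 0.12, adjusted p = 0.48) or P90 (-0.11 ± 0.12, adjusted p = 0.76). No label says where the probes lie relative to the deleted part of Igf1, so these levels do not check the genotype labels. In such bulk samples fewer cells of a type and less RNA per cell cannot be told apart.

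Between E18.5 and P15, Dcx, Stmn2, Tubb3 and Gap43 rose in both genotypes and Sox4 fell, while Sox11, Tubb2b and Dpysl3 did not pass. Between P15 and P90, Dcx, Sox11, Sox4 and Dpysl3 fell in both genotypes and Tubb2b fell in the null. Dcx was the gene that passed in both intervals in opposite directions, and its levels at P90 lay below those of the embryo. No member passed in any comparison of null with wild type.

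**Figure D1:**
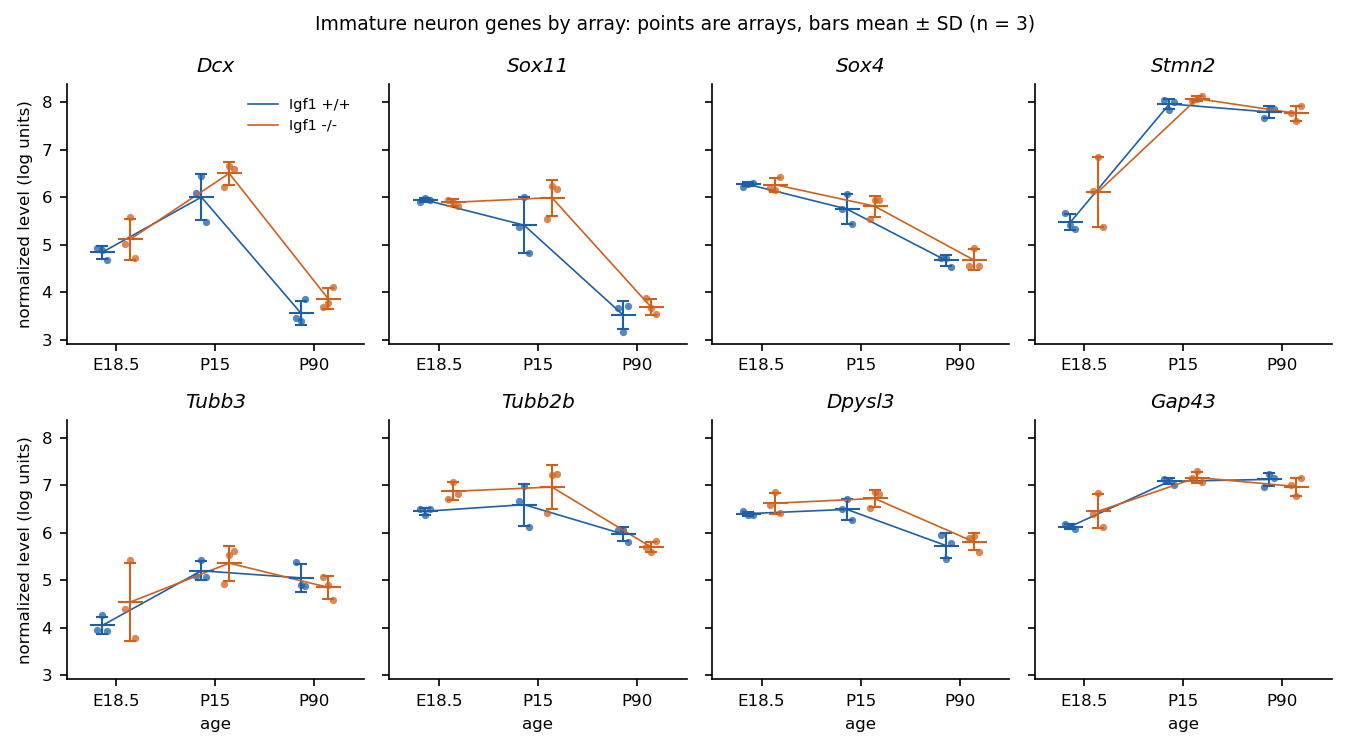
Normalized level (log units) of each of the 8 genes at E18.5, P15 and P90. Points are arrays, bars are mean ± SD of 3 arrays, blue is Igf1 +/+ and orange Igf1 -/-. Dcx is highest at P15 (5.48 to 6.66) and lowest at P90 (3.4 to 4.1), Sox4 is lower at each later age, and every postnatal array of Stmn2 is above every E18.5 array. Gap43 has higher group means at both postnatal ages, but 1 null array of P90 (6.77) lies below 1 null array of E18.5 (6.83).

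Sox11 was at 5.9, 5.98 and 5.94 in the 3 wild-type and at 5.94, 5.9 and 5.81 in the 3 null arrays of E18.5. At P15 it was at 5.38, 6.01 and 4.83 in wild type and at 5.55, 6.23 and 6.18 in null. At P90 it was at 3.66, 3.17 and 3.72 in wild type and at 3.87, 3.67 and 3.54 in null. The embryonic arrays lay close together, the P15 arrays spread on both sides of them, and every P90 array was below every other array. Sox11 fell by 1.89 (SE 0.24, adjusted p = 0.00025) from P15 to P90 in wild type, a fold of 6.6 (base e) or 3.7 (base 2). In null it fell by 2.3 (SE 0.24, adjusted p = 4.1e-05), a fold of 9.93 (base e) or 4.91 (base 2). Ordered by size, these were the 13th and 8th largest differences of all genes in their comparisons. From E18.5 to P15 the difference was -0.53 ± 0.24 in wild type (adjusted p = 0.091) and 0.1 ± 0.24 in null (adjusted p = 0.77). The wild-type difference passed with array medians subtracted in place of quantile normalization (-0.66, adjusted p = 0.041) and without wild type 2 of P15 (-0.83, adjusted p = 0.0057). It shrank to -0.24 without wild type 3 of P15 (adjusted p = 0.43) and to -0.36 without normalization (adjusted p = 0.36). The null difference was -0.02 at the lowest when 1 array was left out.

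Sox4, the other SoxC factor on the list, was at 6.22, 6.28 and 6.29 in wild type and at 6.2, 6.14 and 6.42 in null at E18.5. Arrays of P15 stood at 5.74, 6.06 and 5.44 in wild type and at 5.55, 5.93 and 5.94 in null. Arrays of P90 stood at 4.73, 4.73 and 4.53 in wild type and at 4.56, 4.94 and 4.55 in null. The 3 ages did not overlap, and within each age the genotypes did. Sox4 fell from E18.5 to P15 by 0.52 in wild type (SE 0.15, adjusted p = 0.012) and fell by 0.45 in null (SE 0.15, adjusted p = 0.028). It fell again from P15 to P90, by 1.08 in wild type (SE 0.15, adjusted p = 0.00048) and fell by 1.12 in null (SE 0.15, adjusted p = 3e-04). The earlier fall rests on the scaling and on single arrays. It no longer passed without normalization between arrays (-0.35, adjusted p = 0.16 in wild type; -0.13, adjusted p = 0.61 in null). In wild type it was also lost without wild type 3 of P15 (-0.37, adjusted p = 0.072), and in null without null 3 of E18.5 (-0.37, adjusted p = 0.11) or null 1 of P15 (-0.32, adjusted p = 0.13). The later fall passed under every alternative that was run.

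Dcx, doublecortin, stabilises the microtubules of migrating neuroblasts. It was at 4.94, 4.89 and 4.68 in wild type and at 5.02, 5.58 and 4.71 in null at E18.5. By P15 the level was at 6.08, 6.45 and 5.48 in wild type and at 6.22, 6.66 and 6.6 in null. By P90 the level was at 3.45, 3.4 and 3.86 in wild type and at 3.68, 3.78 and 4.1 in null. Within each genotype the P15 arrays lay above all E18.5 arrays, and all P90 arrays lay below them. Dcx rose from E18.5 to P15 by 1.16 ± 0.24 in wild type (adjusted p = 0.0011) and by 1.39 ± 0.24 in null (adjusted p = 0.00026), folds of 3.2 and 4.01 for base e, or 2.24 and 2.62 for base 2. Thereafter, up to P90, it fell by 2.43 in wild type (SE 0.24, adjusted p = 3.8e-05) and fell by 2.64 in null (SE 0.24, adjusted p = 1.5e-05). These falls correspond to folds of 11.4 and 14 for base e, or 5.39 and 6.23 for base 2, and were the 4th and 3rd largest differences of all genes. Both intervals share the P15 arrays, so the rise and the fall are not independent of each other.

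Stmn2, a stathmin that binds free tubulin in growth cones, was at 5.67, 5.42 and 5.34 in wild type and at 6.13, 6.85 and 5.37 in null at E18.5. Arrays of P15 stood at 8.04, 7.84 and 8 in wild type and at 8.02, 8.07 and 8.12 in null. Arrays of P90 stood at 7.66, 7.86 and 7.86 in wild type and at 7.77, 7.61 and 7.91 in null. Every postnatal array was above every embryonic one. Stmn2 rose from E18.5 to P15 by 2.48 ± 0.24 in wild type (adjusted p = 7e-07), a fold of 12 (base e) or 5.6 (base 2). In null it rose by 1.95 ± 0.24 (adjusted p = 9.8e-06). The later differences were small, -0.17 ± 0.24 in wild type (adjusted p = 0.67) and -0.3 ± 0.24 in null (adjusted p = 0.48), although the null arrays of P15 and P90 did not overlap.

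Tubb3, the beta-tubulin most restricted to neurons, was at 3.96, 4.26 and 3.93 in wild type and at 4.4, 5.42 and 3.79 in null at E18.5. At P15 it was at 5.08, 5.43 and 5.07 in wild type and at 4.93, 5.53 and 5.62 in null. At P90 it was at 5.39, 4.9 and 4.88 in wild type and at 5.07, 4.9 and 4.58 in null. The wild-type arrays of E18.5 lay below all postnatal arrays, while null array 2 of E18.5 lay within the postnatal range. Tubb3 rose from E18.5 to P15 by 1.14 ± 0.31 in wild type (adjusted p = 0.0073) and by 0.82 ± 0.31 in null (adjusted p = 0.044). The null value was close to the threshold and depended on single arrays. It was 1.26 without null 2 of E18.5 (adjusted p = 0.00078) and 0.45 without null 3 (adjusted p = 0.24). The call also ended without null 1 of E18.5 (0.76, adjusted p = 0.1), null 2 of P15 (0.74, adjusted p = 0.12) or null 3 of P15 (0.69, adjusted p = 0.14). It ended, at an unchanged difference of 0.82 and adjusted p of 0.05 to 0.054, without wild type 1, 2 or 3 of E18.5, wild type 1 or 3 of P15, null 2 of P90 or wild type 2 of P90. From P15 to P90 the differences were -0.14 ± 0.31 in wild type (adjusted p = 0.78) and -0.51 ± 0.31 in null (adjusted p = 0.33).

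Tubb2b, a beta-tubulin needed for the migration of cortical neurons, was at 6.49, 6.38 and 6.49 in wild type and at 6.71, 7.07 and 6.82 in null at E18.5. By P15 the level was at 6.67, 6.99 and 6.12 in wild type and at 6.42, 7.22 and 7.23 in null. By P90 the level was at 6.06, 6.05 and 5.81 in wild type and at 5.7, 5.6 and 5.82 in null. All P90 arrays were below all others, and those of P15 spanned the E18.5 range. Its difference from E18.5 to P15 was 0.14 ± 0.21 in wild type (adjusted p = 0.64) and 0.09 ± 0.21 in null (adjusted p = 0.78). Tubb2b fell from P15 to P90 by 1.25 in null (SE 0.21, adjusted p = 0.0015), whereas the wild-type difference of -0.62 ± 0.21 missed the threshold (adjusted p = 0.057). The wild-type difference passed with array medians subtracted (-0.9, adjusted p = 0.0054), with dim genes left out (-0.62, adjusted p = 0.044), without wild type 3 of P15 (-0.85, adjusted p = 0.015) and without null 1 of P15 (-0.62, adjusted p = 0.024). It shrank to -0.42 without wild type 2 of P15 (adjusted p = 0.25). Whether the 2 genotypes differ in this later change was not tested.

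Dpysl3, also called CRMP4, is a cytosolic protein of the collapsin response mediator family. At E18.5 it was at 6.45, 6.37 and 6.37 in wild type and at 6.59, 6.85 and 6.42 in null, and at P15 at 6.5, 6.71 and 6.27 in wild type and at 6.51, 6.85 and 6.81 in null. At P90 it was at 5.95, 5.44 and 5.79 in wild type and at 5.88, 5.94 and 5.6 in null. The E18.5 and P15 arrays overlapped, and every P90 array lay below them. Dpysl3 fell from P15 to P90 by 0.76 in wild type (SE 0.15, adjusted p = 0.0046) and fell by 0.92 in null (SE 0.15, adjusted p = 0.0013). The earlier difference was 0.1 ± 0.15 in both genotypes (adjusted p = 0.65 in wild type and 0.63 in null), and turned to -0.01 in wild type with array medians subtracted.

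Gap43, a membrane phosphoprotein of growth cones and presynaptic endings, was at 6.18, 6.15 and 6.07 in wild type and at 6.4, 6.83 and 6.12 in null at E18.5. At P15 it was at 7.12, 7.11 and 7.01 in wild type and at 7.14, 7.29 and 7.06 in null. At P90 it was at 6.97, 7.24 and 7.15 in wild type and at 7.01, 6.77 and 7.14 in null. The P15 arrays stood above all embryonic arrays, and P90 overlapped P15. Gap43 rose from E18.5 to P15 by 0.95 ± 0.14 in wild type (adjusted p = 5.9e-05) and by 0.71 ± 0.14 in null (adjusted p = 0.00092). From P15 to P90 the difference was -0.19 ± 0.14 in null (adjusted p = 0.45) and 0.04 ± 0.14 in wild type (adjusted p = 0.88), and the latter turned to -0.31 with array medians subtracted and to -0.03 without normalization.

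**Figure D2:**
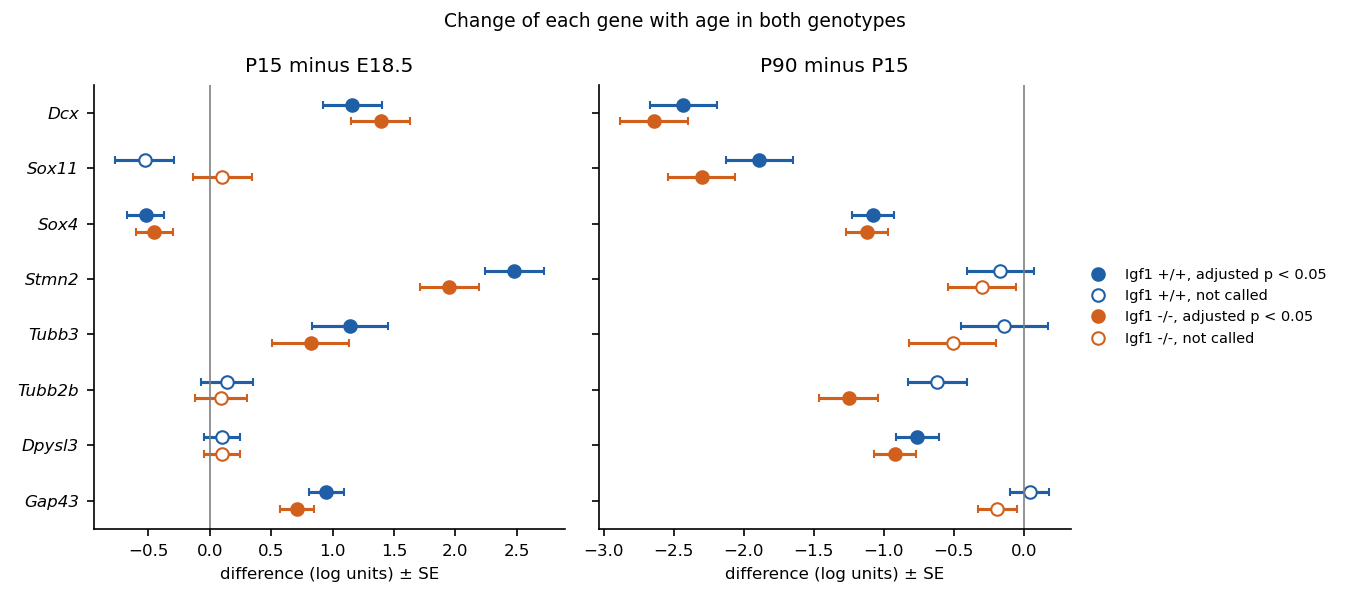
Difference between ages (log units) with its SE for the 8 genes, P15 minus E18.5 on the left and P90 minus P15 on the right. Blue is Igf1 +/+, orange is Igf1 -/-, and filled points passed the limma test at an adjusted p under 0.05. Stmn2 has the largest rise to P15 (2.48 in wild type) and Dcx the largest fall to P90 (-2.64 in null).

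Read against all genes, the shares of members that passed from E18.5 to P15 stand in a background where many genes changed. In wild type 4 of the 8 members rose and 1 fell, where 19.7% of all genes rose and 21.9% fell. In null 4 rose and 1 fell, with 20.3% of all genes rising and 20.5% falling. The median difference of the members was 0.55 in wild type and 0.41 in null, beside -0.05 and -0.04 over all genes. In the later interval, 0 of 8 rose and 4 fell in wild type, where 8.08% of all genes rose and 9.78% fell. In null 0 rose and 5 fell, beside 6.12% and 6.83% of all genes. The member medians were -0.69 in wild type and -1.02 in null, against 0.01 and 0.02 over all genes. Without normalization between arrays, genes shifted upward from P15 to P90 as a whole (medians of 0.2 in wild type and 0.39 in null, 91.4% and 97.4% of calls higher), yet 4 members in wild type and 5 in null still fell.

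Comparisons of null with wild type ask whether the loss of Igf1 changes these genes at a given age, and the limma test called 0 of 8 members at E18.5, P15 and P90. Over all genes 0.0802% were called at E18.5, 0.015% at P15 and 0.296% at P90, so few genes passed at all. At an unadjusted p under 0.05 there were 2 members at E18.5 (Stmn2 and Gap43), 1 at P15 (Sox11) and 0 at P90. Of all 19938 genes, 2501, 1389 and 2213 had such a value at these ages. The genotypes did not overlap for 1 member at E18.5, Tubb2b, and for 0 at P15 and P90, where the shares over all genes were 19.7%, 16.5% and 10.5%.

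At E18.5, 6 of the 8 members had a higher mean in null (median difference 0.29, beside -0.02 over all genes). In lists described below, so had 14 of 20 neuronal transcription factors and 24 of 31 mature neuron genes. For supporting cells it was 6 of 17 genes and for mesenchyme and bone 2 of 18. The genes in such a count, here and at P15 below, are read on the same arrays and are not independent observations. Among the members, the 2 SoxC factors had differences of -0.05 ± 0.24 (Sox11) and -0.01 ± 0.15 (Sox4). Stmn2 had the largest difference, 0.64 ± 0.24 (95% interval 0.13 to 1.16, adjusted p = 0.31). Tubb3 differed by 0.48 ± 0.31 (adjusted p = 0.52), Tubb2b by 0.42 ± 0.21 (adjusted p = 0.43), Gap43 by 0.32 ± 0.14 (adjusted p = 0.38), Dcx by 0.27 ± 0.24 (adjusted p = 0.64) and Dpysl3 by 0.23 ± 0.15 (adjusted p = 0.54). Null array 2 was the highest of the 6 embryonic arrays for 6 members, Dcx, Stmn2, Tubb3, Tubb2b, Dpysl3 and Gap43. Without it the differences were 0.28 for Stmn2, 0.04 for Tubb3, 0.31 for Tubb2b, 0.13 for Gap43, 0.03 for Dcx and 0.11 for Dpysl3. Without null array 3, the lowest null array for Dcx, Stmn2, Tubb3, Dpysl3 and Gap43, Stmn2 passed (1.01 ± 0.17, adjusted p = 0.038). The same null array 2 had the highest mean of the vestibular ganglion list among the E18.5 arrays (5.07, against 4.46 to 4.89 in the other 5), of the mature neuron list (4.95, against 4.35 to 4.68) and of the adipocyte list (5.2, against 3.46 to 3.76). Among lists of early neuronal genes it was the highest for cytoskeleton and growth cone (5.88, against 5.42 to 5.59). It was so as well for RNA-binding and adhesion (5.08, against 4.75 to 4.87) and neuronal transcription factors (3.66, against 3.43 to 3.58). It was also the highest for skeletal muscle (6.84, against 5.65 to 6.56), granule neurons (4.36, against 4.01 to 4.16) and, narrowly, glia (4.48, against 4.36 to 4.47), and the lowest for hair cells (4.1, against 4.26 to 4.38) and supporting cells (5.55, against 5.66 to 5.77). Skeletal muscle was the list with genes called between genotypes at E18.5, 4 of 18 higher in null, with all 18 differences above 0 and a median of 0.61. The mesenchyme and bone mean was lower in all 3 null arrays (6.53 to 6.67) than in wild type (6.91 to 6.97). The part of those other tissues in the members' differences was not tested.

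At P15 all 8 members had a higher mean in null, by 0.06 to 0.58 (median 0.2, beside 0.01 over all genes). So had 17 of 20 neuronal transcription factors and 23 of 27 cytoskeleton and growth cone genes of the lists described below. The count was 20 of 22 for RNA-binding and adhesion genes and 14 of 17 for supporting cell genes. It was 19 of 31 for mature neuron genes and 0 of 27 for cell cycle genes. Sox11 differed by 0.58 ± 0.24 (95% interval 0.07 to 1.09, adjusted p = 0.64), Dcx by 0.49 ± 0.24 (-0.02 to 1.01, adjusted p = 0.72) and Tubb2b by 0.36 ± 0.21 (-0.09 to 0.82, adjusted p = 0.82). The others were Dpysl3 (0.23 ± 0.15), Tubb3 (0.16 ± 0.31), Stmn2 (0.11 ± 0.24), Gap43 (0.08 ± 0.14) and Sox4 (0.06 ± 0.15), of which Gap43 and Sox4 turned to -0.02 and -0.01 with array medians subtracted and without normalization. Wild type 3 was the lowest P15 array for 6 members, Dcx, Sox11, Sox4, Tubb2b, Dpysl3 and Gap43. Without it the differences of Sox11, Dcx and Tubb2b were 0.29, 0.23 and 0.13. Without wild type 2, the highest wild-type array for Dcx, Sox11, Sox4, Dpysl3 and both tubulins, they were 0.88, 0.72 and 0.56, and without null 1 they were 0.8, 0.63 and 0.63. None of these passed. Wild type 3 also had the lowest mean of the mesenchyme and bone list at P15 (6.16, against 6.23 to 6.54 in the other 5 arrays), while its granule neuron mean (6.87) lay within the range of the others (6.67 to 6.94). It was the lowest as well for neuronal transcription factors (4.47), cytoskeleton and growth cone (6.38), hair cells (4.01) and supporting cells (5.0). Its mature neuron mean (6.31) was the highest of the wild-type arrays. Whether these differences in list means bear on the members was not tested.

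At P90 the members' differences ran from -0.27 (Tubb2b, SE 0.21) to 0.29 (Dcx, SE 0.24), 4 of them above 0, and the adjusted p-values were 0.65 or more. The 95% intervals allow a difference of up to 0.8 for Dcx and down to -0.86 for Tubb3, so the 3 arrays in each group leave room for changes of that size in single genes. The rise or fall from E18.5 to P15 was also compared between genotypes. The difference between null and wild type in this change was 0.63 ± 0.34 for Sox11 (adjusted p = 0.64) and -0.53 ± 0.34 for Stmn2 (adjusted p = 0.68), and 0 of 8 members passed, beside 0.145% of all genes. At an unadjusted p under 0.05 there were 0 members, beside 1697 of all 19938 genes. Single arrays moved both values: Sox11 was 0.34 without wild type 3 of P15 and 0.94 without wild type 2, and Stmn2 was -0.17 without null 2 of E18.5 and -0.9 without null 3. None of these passed (adjusted p of 0.16 or more).

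**Figure D3:**
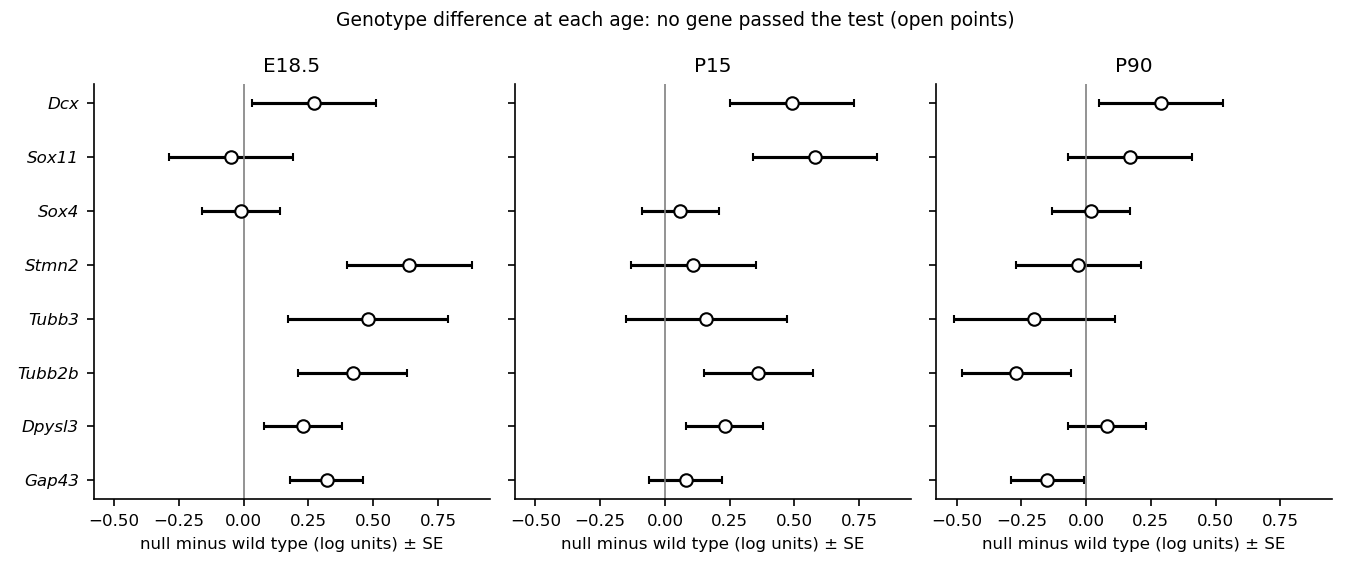
Null minus wild-type difference (log units) with its SE for the 8 genes at E18.5, P15 and P90. All points are open because no gene passed. At E18.5 the largest difference is that of Stmn2 (0.64), at P15 that of Sox11 (0.58).

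Other genes of early neuronal life were taken from lists that share no gene with the 8 members. Among 27 measured genes of the cytoskeleton and growth cone, 18 rose and 1 fell from E18.5 to P15 in wild type, and 21 rose and 1 fell in null. Between P15 and P90, 9 fell in wild type and 11 in null, and 0 rose. That count moved with the scaling, to 16 lower and 1 higher in wild type and 13 lower in null with array medians subtracted, and to 6 lower and 1 higher and 4 lower and 2 higher without normalization. Gpm6a, a neuronal membrane glycoprotein of growth cones, rose by 3.25 in wild type (adjusted p = 7.7e-10) and was then level, at 8.62 and 8.6. Dclk1, a kinase related to doublecortin, rose by 0.86 in wild type (adjusted p = 2.1e-07). Tuba1a, the main alpha-tubulin of young neurons, rose by 0.46 (adjusted p = 0.0016) and fell again by 0.48 (adjusted p = 0.0062). Marcks and Marcksl1, actin-regulating substrates of protein kinase C named here after their values were seen, fell by 0.89 (adjusted p = 5.8e-05) and 0.93 (adjusted p = 0.0047) from P15 to P90 in wild type.

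Of 20 measured transcription factors of neuronal differentiation, 10 rose and 4 fell from E18.5 to P15 in wild type, and 12 rose and 4 fell in null. At the later step, 7 fell in wild type and 5 in null, and 0 rose. Without normalization 3 fell and 2 rose in wild type and 2 fell and 1 rose in null, where the median turned from -0.36 to 0.04. Neurod1, a basic helix-loop-helix factor, rose by 5.98 ± 0.26 in wild type (adjusted p = 3.1e-10), from 2.06 to 8.04. St18 (3.1), Myt1 (2.53) and Neurod2 (1.94) rose as well. None of these, nor Neurod1, passed from P15 to P90 in either genotype. In wild type Neurod1 was then at 8.04 and 7.7, and St18 at 6.14 and 6.33. Myt1 was at 6.17 and 6.21, and Neurod2 at 5.46 and 5.65. The following were named after their values were seen. Sox12, the third SoxC factor, fell in wild type by 0.38 from E18.5 to P15 (adjusted p = 0.002) and fell by 0.69 from P15 to P90 (adjusted p = 0.00021). Insm1, a zinc finger factor of newly formed neurons, rose by 1.33 (adjusted p = 2.3e-05) and then fell by 1.41 (adjusted p = 0.00027). Nhlh1, another helix-loop-helix factor of early neurons, fell by 2.17 from P15 to P90 (adjusted p = 0.0029).

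Of 22 genes for RNA-binding proteins and adhesion molecules of young axons, 16 rose and 4 fell from E18.5 to P15 in wild type, and 15 rose and 4 fell in null. After P15, 1 rose and 5 fell in wild type, and 0 rose and 5 fell in null. Without normalization 1 gene rose and 1 fell in wild type and 1 rose and 2 fell in null, while with array medians subtracted 10 fell in each genotype. Cntn2, a contactin of growing axons, rose by 2.55 (adjusted p = 1.7e-09) and Celf4, an RNA-binding protein, by 2.52 (adjusted p = 6.7e-09) in wild type. Neither passed from P15 to P90 in either genotype. In wild type Cntn2 was then at 6.49 and 6.48, and Celf4 at 6.45 and 6.33. Robo2, a receptor for Slit guidance cues, fell by 0.4 in wild type from E18.5 to P15 (adjusted p = 0.0025), whereas its difference in null was 0.02 (adjusted p = 0.9). From P15 to P90 Robo2 fell by 0.42 in wild type (adjusted p = 0.0079) and fell by 0.82 in null (adjusted p = 7.8e-05). The difference between genotypes in the earlier change of Robo2 was 0.42 ± 0.13 and did not pass (adjusted p = 0.34).

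Of 31 measured genes of the mature neuron list, 27 rose and 1 fell from E18.5 to P15 in wild type (median 1.92), and 26 rose and 1 fell in null (median 1.79). After P15, 2 rose and 2 fell in wild type and 3 rose and 1 fell in null, with medians of 0.15 and 0.16 beside -0.69 and -1.02 for the members, of which Stmn2, Tubb3 and Gap43 did not pass in either genotype. The difference between the lists was not tested. Without normalization 9 genes of the list rose and 0 fell in null. Under the other scalings the list's median was -0.1 and 0.18 in wild type and -0.01 and 0.4 in null (medians subtracted, then no normalization), and that of the members -0.96 and -0.68, and -1.12 and -0.7. Gabrb2, a GABA receptor subunit, rose by 2.97 in wild type (adjusted p = 7.9e-10), Rbfox3, the NeuN protein of neuronal nuclei, by 2.83 (adjusted p = 1.7e-09) and the calcium buffer Pvalb by 2.97 (adjusted p = 2.5e-10). The mean of the list was 4.35 to 4.95 over the E18.5 arrays, 6.07 to 6.38 at P15 and 6.31 to 6.53 at P90.

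Markers of cerebellar granule neurons, small neurons of a brain region that lies close to the inner ear, moved with the postnatal ages. Their list also holds Calb1 and Pcp2, which mark Purkinje cells of the same brain region, so it does not stand for granule neurons alone. All 14 measured genes of that list rose from E18.5 to P15 in both genotypes, with medians of 2.46 in wild type and 2.38 in null (13 genes in wild type with array medians subtracted). The list mean was 4.01 to 4.36 in the E18.5 arrays, 6.67 to 6.94 at P15 and 6.63 to 6.99 at P90. Gabra6, a GABA receptor subunit of granule neurons, was at 2.21 to 2.7 over the E18.5 arrays and at 7.71 to 8.31 over the postnatal ones. Cbln1, a synaptic organiser secreted by granule neurons, rose by 4.13 in wild type (adjusted p = 7.4e-10). From P15 to P90, where Dcx, Sox11, Sox4 and Dpysl3 fell, 1 gene of this list fell in wild type and 2 in null, with medians of 0.01 and -0.12. With array medians subtracted 5 fell in each genotype (medians -0.34 and -0.35), and without normalization 0 fell (-0.06 and 0.07). The vestibular ganglion list changed less, with 7 of 16 genes higher and 3 lower from E18.5 to P15 in wild type (median 0.39) and 6 higher and 3 lower in null (median 0.17). The lists share genes, such as Neurod1 (neuronal factors and granule neurons) and Calb2 (mature neurons, ganglion and hair cells). The part of any such tissue in the members' levels was not tested.

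**Figure D4:**
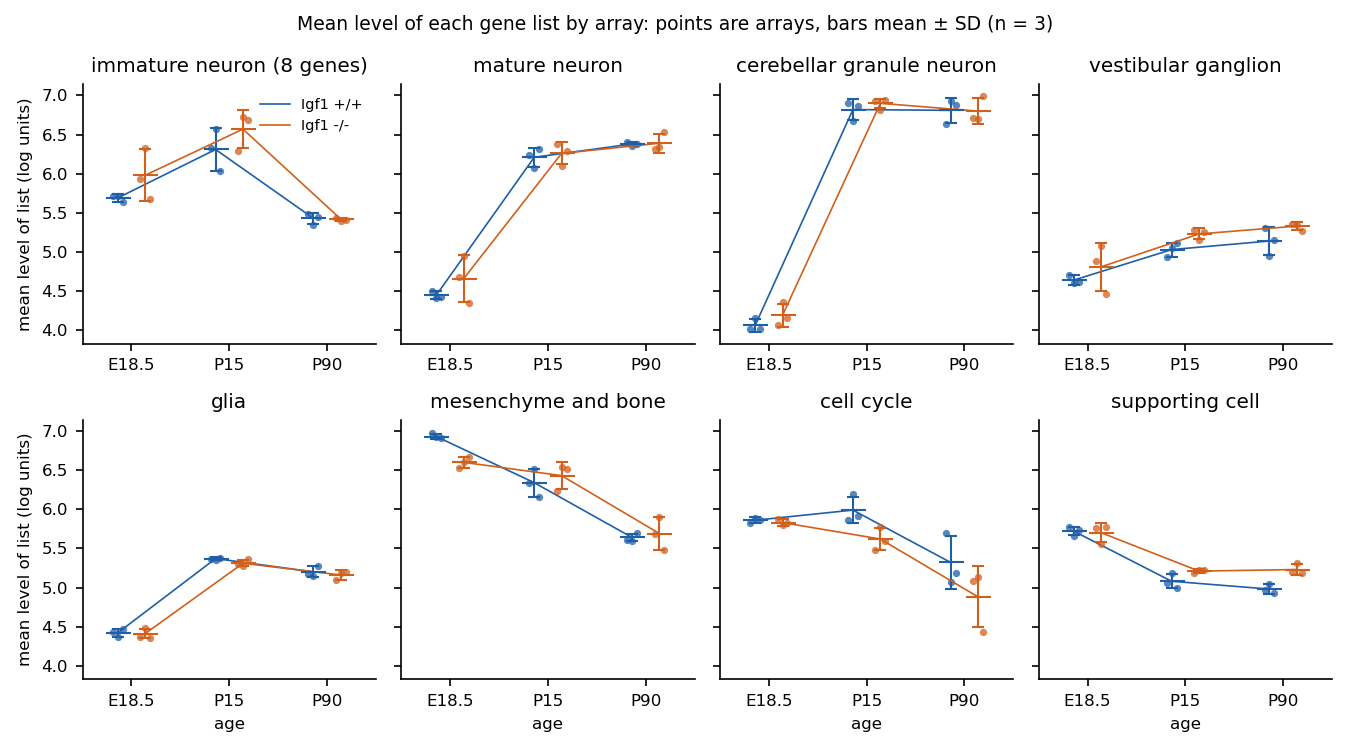
Mean level (log units) of the 8 genes and of 7 other lists at E18.5, P15 and P90. Points are arrays, bars are mean ± SD of 3 arrays, blue is Igf1 +/+ and orange Igf1 -/-. The granule neuron list stands at 4.01 to 4.36 at E18.5 and at 6.63 to 6.99 postnatally, while the mean of the 8 genes falls from 6.03 to 6.72 at P15 to 5.35 to 5.48 at P90.

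Markers of non-neuronal tissue also moved with age. Of 18 mesenchyme and bone genes, 5 rose and 12 fell from E18.5 to P15 in wild type and 1 rose and 13 fell from P15 to P90 (5 and 11, then 1 and 12, in null). Of 27 cell cycle genes, 18 fell from P15 to P90 in wild type and 21 in null, with 0 rising. Without normalization 15 and 8 fell (the null median moved from -0.73 to -0.36), and with array medians subtracted 26 and 25. B cell progenitor genes fell as well from P15 to P90, 9 of 10 in each genotype, after 8 had risen from E18.5 to P15 in wild type and 9 in null. Glial genes rose from E18.5 to P15 in 11 of 17 cases in wild type, with 4 lower, and in 12 with 3 lower in null, and 2 rose and 2 fell from P15 to P90 in wild type (1 and 2 in null). Skeletal muscle genes were 7 higher and 5 lower of 18 in wild type and 2 higher and 14 lower in null from E18.5 to P15, then 10 and 13 higher. Adipocyte genes were 4 of 10 higher in wild type and 1 lower in null at the earlier step, and 1 and 4 higher at the later one. Of the defining hair cell markers, Otof, a protein of hair cell synapses, stood at 4.73 to 5.26 at E18.5 and at 3.96 to 4.63 postnatally. The hair cell factor Pou4f3 stood at 3.16 to 3.75 at E18.5 and at 1.81 to 3.2 postnatally, where all arrays lay below 3.36, the 25th percentile of all values. Of 20 hair cell genes 12 fell and 3 rose from E18.5 to P15 in wild type (9 and 3 in null), and of 17 supporting cell genes 8 fell and 5 rose (9 and 6 in null). From P15 to P90 at most 3 genes of either list passed in a direction in either genotype. This too depended on the scaling, since without normalization 8 hair cell genes rose in wild type and 15 in null, and 4 hair cell genes rose and 2 fell in null from E18.5 to P15. The hair cell myosin Myo7a stood at 4.85 to 5.14 at E18.5 and at 4.32 to 4.74 postnatally.

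Genes whose profile over the 18 arrays was most like the mean of the members, each member first centred on its own mean, were sought among the genes whose group means span at least 1 unit. The 10 genes with the highest Pearson correlation were Ppp1r14c (0.97), Fabp7 (0.96), Plppr1 (0.96), Dcc (0.95), Nav1 (0.93), Draxin (0.93), Igfbpl1 (0.92), Ncan (0.92), Tnc (0.89) and Tubb2a (0.88). These correlations describe 18 arrays that share ages and dissections, and carry no test. Among the members, Dcx had the highest correlation with their mean (0.97), followed by Dpysl3 (0.87), Tubb2b (0.85) and Sox11 (0.74), while Sox4 (0.56), Tubb3 (0.53), Gap43 (0.28) and Stmn2 (0.26) had lower values. The mean includes each member itself, and members with a wider range, such as Dcx (group means spanning 2.93 units), weigh more in it. The order of the members is therefore partly set by construction. Dcc, the netrin receptor, had group means of 3.95 and 3.96 at E18.5, 4.85 in wild type and 5.32 in null at P15, and 3.38 and 3.63 at P90. Fabp7, a fatty acid binding protein of radial glia, rose by 0.86 ± 0.31 in wild type to P15 (adjusted p = 0.034) and fell by 1.35 afterwards (SE 0.31, adjusted p = 0.0093). Draxin, a secreted repellent of axons, rose by 1.09 ± 0.17 (adjusted p = 9.1e-05) and fell by 1.28 (SE 0.17, adjusted p = 0.00037). Tubb2a, a close relative of Tubb2b, had a difference of 0.22 ± 0.16 to P15 (adjusted p = 0.28) and fell by 0.72 afterwards (SE 0.16, adjusted p = 0.0077). Tubulin genes are alike in sequence, and no label says how far the probes of Tubb2a, Tubb2b and Tubb3 tell them apart.

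**Figure D5:**
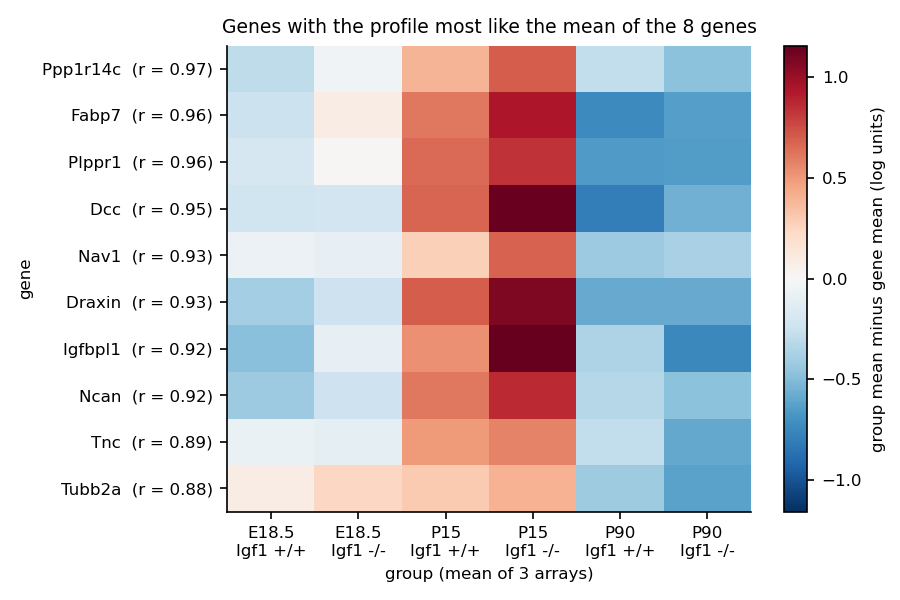
Group means minus the gene's mean over the 6 groups (log units, colour scale) for the 10 genes with the profile most like the mean of the 8 members, with the Pearson correlation over 18 arrays. In null at P15 each of the 10 genes has its highest group mean, for example 5.32 for Dcc. The genes were chosen for likeness to the mean of the members, which is itself highest in that group (6.57). Their shared peak is therefore no separate observation.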

How the data were processed

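Log values of 28853 probe sets were deposited for the 18 arrays. The authors deposited values that are most likely natural log intensities, since the maximum of 10.03 corresponds to 22700 with base e and to 1050 with base 2. Their summarization and any background correction are not stated in the sources used here. The values were quantile normalized over all probe sets. Gene symbols of the platform annotation, possibly out of date, were updated by gene identifier through RefSeq (GRCm38.p6), where 21698 of 21789 probe sets with 1 symbol matched. The 1621 probe sets with more than 1 symbol and the 5443 without a symbol were not used, and the probe set with the highest mean stood for a gene.

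All 19938 genes were fitted in limma 3.58.1 (R 4.3.3; lmFit and eBayes) with 1 mean per group and no intensity filter, and p-values were adjusted by Benjamini-Hochberg with a threshold of 0.05. The fit was tested on simulated arrays with independent normal noise, where 100 genes were changed by 0.5 units and 100 by 1 unit. For null minus wild type at E18.5, 41% of the former and 89% of the latter were called. For the wild-type change from E18.5 to P15 the shares were 42% and 89%. Changes of 0.5 units were thus missed more often than called in that setting. The members, the 14 other gene lists and the tests were chosen with earlier results of these data known. The rule for naming genes took all members, up to 4 genes per list with the smallest p from E18.5 to P15 in wild type, up to 2 with the smallest p of a genotype difference, the defining and highest markers of each list, and the 10 genes most like the members; names outside it are marked as such in the text. Alternatives were array medians subtracted, no normalization, a filter on dim genes (3.36, the 25th percentile of all values; all 8 members passed), the mean of a gene's probe sets, a replicate block and leaving out each array. The number of arrays limits the precision.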

Additional observations from a re-analysis of the deposited data

How the results depend on the processing

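The direction and call of the members' differences were the same in 57 of 64 with array medians subtracted, 55 without normalization, 63 with dim genes left out, and all 64 with probe sets averaged. With the replicate number as a replicate block all 64 were the same as well (5, 5, 4 and 5 members called over the age changes, 0 in the genotype comparisons). No label says whether same-numbered arrays share more than a number. Their residuals correlated from -0.34 to 0.24, above 0.1 in 6 of 45 pairs. With 3 arrays in each group such values do not settle it. With array medians subtracted, 5 values that had not passed changed sign: Dpysl3 (-0.01) from E18.5 to P15 and Gap43 (-0.31) from P15 to P90 in wild type, Sox4 (-0.01) and Gap43 (-0.02) between genotypes at P15, and Tubb2b (0.02) in the genotype difference of the E18.5 to P15 change. Without normalization 7 did: Gap43 from P15 to P90 in wild type (-0.03) and null (0), Sox4 (-0.01) and Gap43 (-0.02) between genotypes at P15, Stmn2 (0.12) and Gap43 (0.01) at P90, and Tubb2b (0.05) in the difference of changes. Over all genes, median subtraction called 7770 from P15 to P90 in wild type (main 3561). No normalization called 5567 there and 7761 in null (2582), 0 at E18.5 (16), 1 at P15 (3) and 0 in the difference of changes (29). The filter called 27 at E18.5, 1 at P15 and 102 at P90 (59). The median of all genes moved to 0.11 and 0.25 from E18.5 to P15 (wild type and null) and to 0.2 and 0.39 from P15 to P90 without normalization, with 71.5%, 85.1%, 91.4% and 97.4% of calls higher, in place of 47.4%, 49.7%, 45.2% and 47.3%. With medians subtracted the shares were 34.4%, 47.1%, 35.6% and 33%, and the all-gene median was -0.18 from E18.5 to P15 in wild type. The causes were not tested.

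Leaving out 1 array gave 3 to 5 members called from E18.5 to P15 in null (3 without null 3 of E18.5) and 0 to 1 between genotypes at E18.5 (1, Stmn2, without null 3). Over all genes it gave 1271 to 4895 called from P15 to P90 in wild type, 1302 to 2733 in null, 0 to 387 between genotypes at E18.5, 0 to 4 at P15, 15 to 674 at P90 and 4 to 62 in the difference of changes. Values that changed sign ranged as follows. From E18.5 to P15 these were Tubb2b (-0.06 to 0.37) and Dpysl3 (-0.01 to 0.21) in wild type and Sox11 (-0.02 to 0.32) and Tubb2b (-0.05 to 0.36) in null, and from P15 to P90 Gap43 (-0.02 to 0.11) in wild type. Between genotypes they were Sox4 at E18.5 (-0.09 to 0.05), P15 (-0.09 to 0.22) and P90 (-0.11 to 0.08), and Stmn2 (-0.1 to 0.05), Sox11 (0 to 0.27) and Dpysl3 (-0.07 to 0.19) at P90. In the difference of changes they were Dcx (-0.04 to 0.47), Sox4 (-0.08 to 0.23), Tubb3 (-0.69 to 0.12), Tubb2b (-0.29 to 0.22) and Dpysl3 (-0.11 to 0.12).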
